A study of Mus musculus with 24 samples.

Results

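The motile cilia genes described here are the 59 genes whose symbols start with Dnah, Cfap, Rsph, Tekt or Spag followed by a number and that had at least 50 raw UMIs, summed over every barcode of the dorsal striatum libraries, among the 54235 features of the mouse count tables. A UMI is a molecular tag that counts 1 captured RNA molecule once. The same rule asked for Dnai symbols, but the files name these dynein intermediate chains Dnaic1 and Dnaic2, so no Dnai symbol was found and their values stand beside the set. In all 68 symbols matched the name rule. Just inside the limit were Dnah14 with 69 UMIs, Cfap58 with 82 and Rsph6a with 87. Just outside it were Spag6 with 49, Dnah17 with 47 and Cfap99 with 43.

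The cells came from mice that learned to reach with a forelimb, and single-cell RNA-seq was done with droplet 3′ kits on dorsal striatum and motor cortex. Striatal mice carried Arc-CreER::Ai9 and cortical mice Fos-CreER::Ai9, in which tamoxifen-dependent Cre under the named immediate early gene switches on a red reporter in active cells. All mice received 4-hydroxytamoxifen. Controls were not trained, early mice were labelled after 2 days of training and late mice after 8 days, and tissue was taken 3 days after labelling. Each pool held the tissue of 2 mice, and the labels give no age. The hemispheres of a pool were separate libraries, and the pool is the replicate, so there were 2 striatal pools a stage. Control pool 1 rests on its left hemisphere alone, since the right one is not analysed here. Nothing in the labels says that the pools of a stage came from separate trainings.

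Motile cilia beat because dynein motors, anchored in rows on the outer microtubule doublets, slide one doublet past the next. Outer arm dyneins set beat frequency and inner arm dyneins the bend, radial spokes pass signals from the central pair of microtubules to the arms, and tektins and many Cfap proteins line or stabilise the doublets. In the brain, ependymal cells carry tufts of such cilia on the walls of the ventricles and move cerebrospinal fluid, while most neurons, astrocytes and progenitors carry at most a single primary cilium without motor arms.

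RFX factors and FOXJ1 are the best known transcription factors of motile cilia genes, and for that reason their motifs were looked for in the RefSeq promoter windows of assembly GRCm38.p6, from 250 bases before to 50 bases after each start site. Of the 59 genes, 49 had a window. The stretches printed here show the motif in 3 genes that had most of their UMIs in ependymal-like cells and the longer RFX motif in Cfap206 and in Spag5, whose RNA was found mainly in dividing cells. Each reads 5′ to 3′ on the gene's own strand and ends before the start site, and capitals mark 1 match each, Tekt1 and Spag16 holding another GGCAAC in lower case, with GGCAAC in Cfap44 the short motif, and the match in Cfap206 the long motif, read on the opposite strand. Tekt1 lies at chr11:72361883-72361930 on the minus strand, Spag16 at chr1:69826834-69826905 on the plus strand, Cfap44 at chr16:44394637-44394708 on the plus strand, Cfap206 at chr4:34730207-34730262 on the minus strand and Spag5 at chr11:78301372-78301451 on the plus strand.
Tekt1: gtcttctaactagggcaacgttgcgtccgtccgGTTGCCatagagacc
Spag16: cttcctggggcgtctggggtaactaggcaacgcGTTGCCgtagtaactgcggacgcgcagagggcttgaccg
Cfap44: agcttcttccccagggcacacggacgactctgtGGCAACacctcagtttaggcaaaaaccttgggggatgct
Cfap206: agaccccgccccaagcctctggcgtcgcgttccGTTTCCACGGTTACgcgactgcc
Spag5: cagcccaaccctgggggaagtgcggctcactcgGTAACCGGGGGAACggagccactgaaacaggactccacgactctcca

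The short RFX motif GTTGCC, searched on both strands, was in the windows of 18 of the 49 genes (36.7%) and of 14.1% of the 27025 genes in the table. The long RFX motif GTNNCCNNGGNAAC, which can contain the short one, was in 4 of 49 (8.16%) against 1.49% of all genes. The FOXJ1 motif TGTTTAC was in 2 of 49 (4.08%) against 4.05% of all genes. The short motif was held by 12 of the 31 genes with a window that had over 50% of their UMIs in ependymal-like cells (38.7%) and by 6 of the other 18 (33.3%), so its share differed little between those 2 groups. These are letter matches in a short window, and no binding was measured.

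Striatal libraries held 16837066 to 23677020 UMIs, and 50627 striatal cells passed the filters. One cluster of 960 cells (1.90%) was called ependymal-like from markers that are not among the 59 genes. Clusters were formed without the 59 genes and without 57 other cilia genes, but the ependymal markers include cilia-associated genes such as Tmem212, Ccdc153 and Meig1, so the comparisons of classes below describe size and spread over pools and are not independent evidence that these cells are ciliated. Of 6 choroid plexus markers, Ttr, Kl and Kcne2 had 0 UMIs in these cells, while Folr1 had 606, in 39.6% of cells, Clic6 246 (20.3%) and Otx2 162 (13.96%), and the list summed to 206 to 358 UMIs per 1000000 across pools. The 6 dividing-cell markers summed to 0 to 21.8 per 1000000, with Mki67 at 0 and Top2a at 40 UMIs. The 7 astrocyte markers, all detected, summed to 1529 to 2408. Of these, Aqp4, Gja1 and Slc1a3 passed as markers of this cluster, and the others did not. They were found in 71.4%, 75% and 63.75% of its cells. The part of RNA from other cells in these sums, and in the results, was not tested. With the 59 genes kept in the clustering the same 960 cells were found. The pools gave 65, 38, 124, 195, 363 and 175 of these cells, in the order control 1, control 2, early 1, early 2, late 1 and late 2, which is the order of every list of 6 pool values below. Their shares of all cells were 1.13%, 0.507%, 1.40%, 2.19%, 3.36% and 1.98%, with both control pools lowest and the early and late pools overlapping. The shares were not tested between stages. Motor cortex had no ependymal-like cluster, and 3 of its 47985 cells had UMIs of at least 3 ependymal markers, against 971 striatal cells.

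Levels are given as CPM, the UMIs of a gene per 1000000 UMIs of a cell class in a pool. Since each molecule is counted at its 3′ end with an efficiency that differs between genes, levels are compared between cell classes and not between genes. Of the 59 genes, 51 were highest in ependymal-like cells among the 14 named classes with at least 200 cells. Another 7615 striatal cells (15.0%) lay in clusters that got no class name and are not in this ranking. Ependymal-like cells held 1.90% of the UMIs of all kept cells and, for the median gene of the set, 72.5% of its UMIs. Over 50% of the UMIs lay there for 39 genes and over 90% for 13. The 10 inner arm dyneins were all highest in ependymal-like cells, as were 23 of 24 Cfap genes, 7 of 8 Rsph genes, 3 of 4 outer arm dyneins and 3 of 4 tektins, but only 5 of 9 Spag genes.

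**Figure D1:**
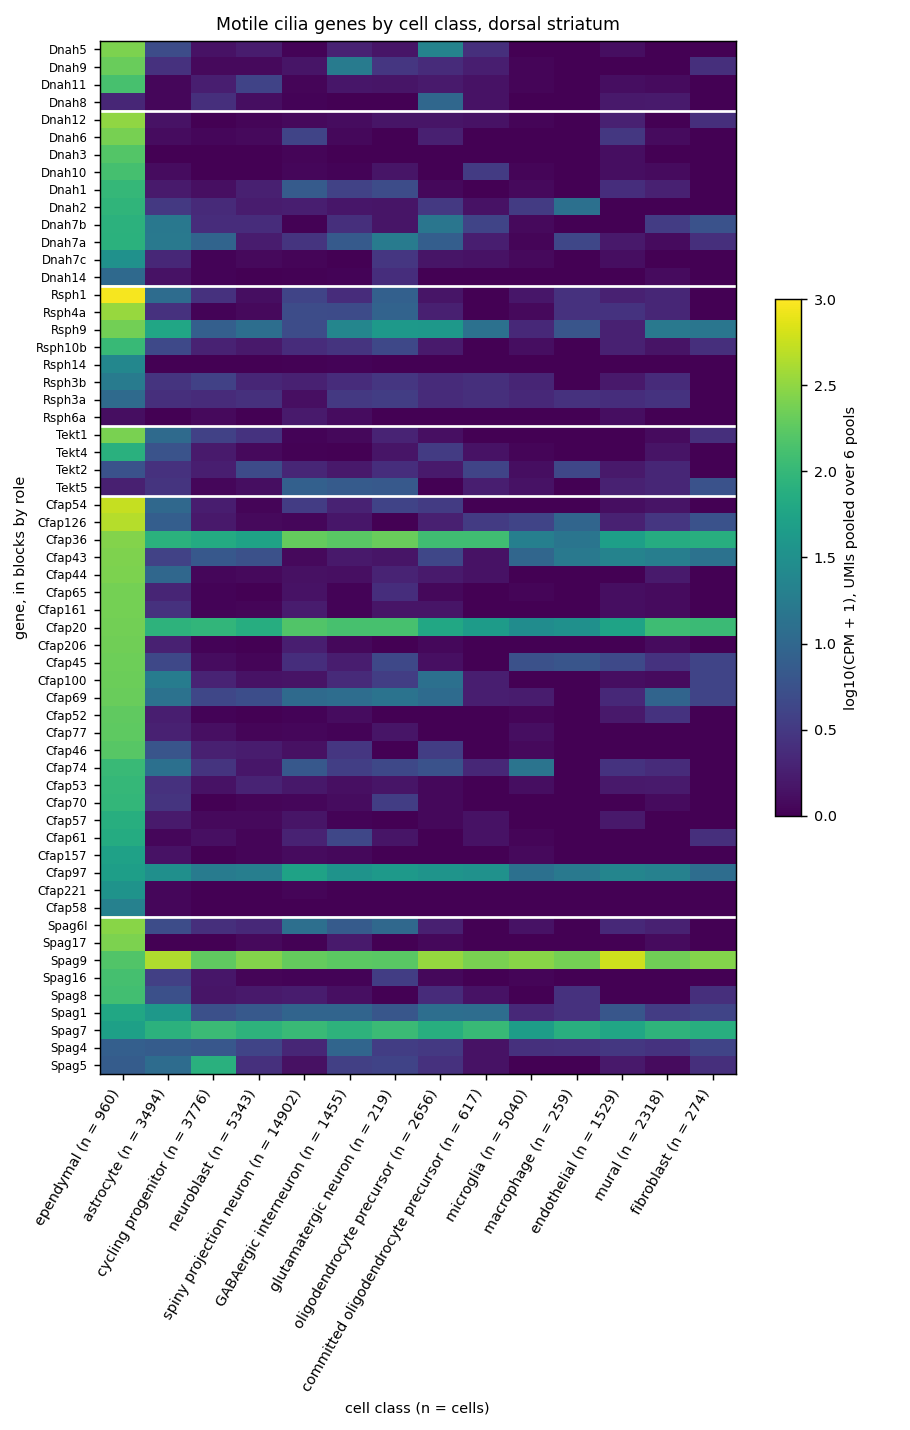
Each row is 1 of the 59 genes, in blocks by role, and each column 1 of 14 named striatal cell classes, with colour giving log10(CPM + 1) from UMIs pooled over the 6 pools. The ependymal-like column is the brightest for 51 genes, and the exceptions include Spag5, Spag7, Spag9 and Tekt5.

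Together the 59 genes took 0.937% of the UMIs of ependymal-like cells, 0.101% in astrocyte-like cells, 0.0612% in cycling progenitor-like cells, 0.0557% in neuroblast-like cells, 0.0786% in spiny projection neuron-like cells (SPNs, the main striatal neurons) and 0.0441% in microglia-like cells. The median ependymal-like cell had UMIs of 18 of the 59 genes, with 10% of cells below 7 and 10% above 33. UMIs of at least 5 of them were found in 98.8% of ependymal-like cells, at a median depth of 3044.5 UMIs. The share was 3.41% in astrocyte-like cells (median depth 1994.5), 5.40% in cycling progenitor-like cells (3454.5), 0.0749% in neuroblast-like cells (1643), 10.3% in SPN-like cells (4148) and 0.0595% in microglia-like cells (1821). A few broad genes made up most of the SPN-like UMIs of the set. In the largest SPN-like cluster (6325 cells) Cfap36 was at 199, Spag9 at 188, Cfap20 at 144, Spag7 at 112 and Cfap97 at 54.7 CPM. Next among the 59 was Cfap69, at 9.49 CPM. Since depth differed, each cell was also thinned to 1000 UMIs. Then 853 of 960 ependymal-like cells (88.9%, Wilson 95% interval 86.7 to 90.7%) had at least 5, against 5 of 3494 astrocyte-like cells (0.143%), 0 of 3776 cycling progenitor-like cells, which allows a share of up to 0.0794%, 0 of 5343 neuroblast-like cells (up to 0.0561%), 0.00671% of SPN-like cells and 0.0198% of microglia-like cells. The last pair of shares is 1 cell in each class and gives no order between them.

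**Figure D2:**
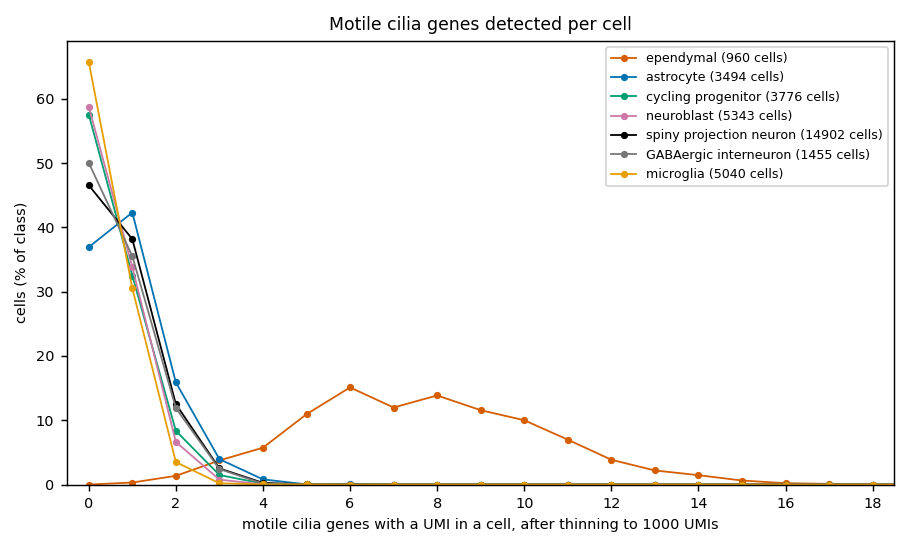
The x axis is the number of the 59 genes with a UMI in a cell after thinning to 1000 UMIs, and the y axis the percent of cells of a class, 1 line a class. The median ependymal-like cell had 8 genes, while most cells of the other classes had 0 or 1.

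The question for the class comparisons was how far the set separates ependymal-like cells from astrocytes, progenitors and neurons of the same pools. Against astrocyte-like cells, 49 of the 59 genes had every ependymal-like pool above every astrocyte-like pool, which held for 8.3% of the 25283 genes with a UMI in either class. The reverse was found for Spag9 alone of the 59, and for 7.95% of all genes. Against cycling progenitor-like cells 51 of 59 lay above in all pools (13.5% of all genes) and Spag7 and Spag5 below (11%). Against neuroblast-like cells 51 lay above (14%) and 0 below (9.7%), and against SPN-like cells 49 lay above (11.8%) and Spag7 and Tekt5 below (17%). So most of the set lay above each of the 4 classes without overlap. The genes below a class were Spag5, Spag7, Spag9 and Tekt5, and the remaining genes overlapped. The 59 genes had to reach a UMI limit, while the shares of all genes include any gene with a UMI in either class. Cfap58, with 71 of its 74 kept UMIs in ependymal-like cells, and Rsph14, with 84 of 87, met the limit through those cells. So did Cfap221, Cfap157 and Dnah14, with 119, 184 and 34 UMIs there of 138, 231 and 69 over all barcodes. Their separation was therefore built in, and the shares of all genes are not a matched base.

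The low-count filter of edgeR let 47 of the 59 genes into the astrocyte comparison, 50 into the cycling progenitor, 47 into the neuroblast and 54 into the SPN comparison. A gene that passed through its ependymal-like counts alone had to differ, so the counts of calls describe the genes tested and support nothing about the whole set. In edgeR's quasi-likelihood test with pool as a block and Benjamini-Hochberg adjustment over all genes, 45 were called higher in ependymal-like than in astrocyte-like cells and 2 lower (background 31.4% and 30.6% of 9678 genes). Against cycling progenitor-like cells 47 were higher and 2 lower (38.8% and 39.2% of 10705), against neuroblast-like cells 45 higher and 2 lower (39.1% and 37.9% of 9426), and against SPN-like cells 50 higher and 3 lower (37.8% and 40.8% of 13121). The median log2 fold changes of the tested genes of the set were 5.99, 7.67, 7.94 and 7.89, beside −0.04, −0.04, −0.02 and −0.10 over all genes tested.

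The set held 4 outer arm dynein heavy chains. Dnah5 (chr15:28203752-28472052 in GRCm38, as are the positions that follow) encodes an outer arm motor whose loss in people causes primary ciliary dyskinesia. In ependymal-like cells it was at 137, 240, 298, 299, 170 and 258 CPM (mean 234 ± 66.9 SD, n = 6 pools), and in astrocyte-like cells at 0, 3.36, 7.48, 2.38, 4.06 and 3.94 CPM. The groups did not overlap, and the log2 fold change was 6.02 (SE 0.23). Dnah5 UMIs were seen in 48.3% of ependymal-like cells and in 0 of 5040 microglia-like cells, which allows up to 0.0595%. Dnah9 (chr11:65831282-66168551), the partner heavy chain of the outer part of the cilium, was at 144, 222, 231, 222, 149 and 207 CPM and at 0 to 2.96 CPM in astrocyte-like cells, a log2 fold change of 6.92 (SE 0.27). Dnah11 (chr12:117877982-118199043), which takes that place near the base of the cilium, was at 89.2, 157, 167, 147, 73.9 and 120 CPM. Astrocyte-like cells gave 1 Dnah11 UMI in all, a ratio of 1033 with a counting interval of 185 to 40900. The fourth gene, Dnah8, is best known from sperm flagella. It had 4 UMIs in ependymal-like cells, a pooled 1.12 CPM, which is too few to compare pool by pool. In oligodendrocyte precursor-like cells Dnah8 was at 13.6, 2.33, 6.49, 10.5, 9.67 and 10.3 CPM. The set's outer arm chains thus parted, with 3 in ependymal-like cells and Dnah8 near the floor there.

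Of the 10 inner arm dynein heavy chains, Dnah12 (chr14:26693274-26891703), a single-headed inner arm motor, was at 240, 301, 368, 349, 140 and 385 CPM (mean 297 ± 93.2 SD, n = 6 pools) and had UMIs in 53.8% of ependymal-like cells and in 0.0198% of microglia-like cells. With 3 UMIs in astrocyte-like cells, the ratio was 827 with a counting interval of 282 to 4014. No Dnah12 UMI was found in cycling progenitor-like cells, so the level was at least 1602-fold higher, taking the floor as 3 counts over the group. Dnah6 (chr6:73017606-73221651), another inner arm chain, was at 151, 218, 233, 286, 207 and 266 CPM and had 2 UMIs in astrocyte-like cells, a ratio of 953 (263 to 7878). Its SPN-like values were uneven, at 0, 6.03, 5.22, 0.493, 0.0874 and 4.30 CPM, yet all lay below every ependymal-like pool. Dnah3 (chr7:119922671-120095280) was at 13.7, 157, 165, 197, 93.1 and 186 CPM, lowest by far in control pool 1, and had no UMI in astrocyte-like cells, so that it was at least 411-fold higher. The other 7 inner arm chains were highest in ependymal-like cells too, and their shares of UMIs there went down to 29.4% of the gene's total. Reads of Dnah7a, Dnah7b and Dnah7c are uncertain between these genes, since their 3′ ends share sequence.

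Among the 8 radial spoke genes, Rsph1 (chr17:31255019-31277383), a spoke head protein, was at 699, 885, 821, 972, 767 and 1067 CPM in ependymal-like cells (mean 869 ± 135 SD, n = 6 pools) and at 16.1, 13.4, 4.99, 8.72, 12.2 and 10.8 CPM in astrocyte-like cells. Its UMIs were in 83.9% of ependymal-like cells (Wilson 95% interval 81.4 to 86.0%), 2.03% of astrocyte-like cells and 0.0992% of microglia-like cells. The log2 fold change to astrocyte-like cells was 6.46 (SE 0.20, edgeR adjusted p = 3.00e-13). Rsph4a (chr10:33905111-33916021), a spoke head scaffold, was at 219, 279, 403, 349, 250 and 367 CPM against 0 to 4.06 in astrocyte-like cells, a log2 fold change of 7.58 (SE 0.29). Rsph9 (chr17:46122035-46144216), also of the spoke head, differed from both by its level outside ependymal-like cells. It was at 185, 218, 211, 212, 206 and 291 CPM in ependymal-like and at 39.5, 65.8, 59.8, 55.5, 46.0 and 62.6 CPM in astrocyte-like cells. The log2 fold change of Rsph9 was 2.08 (SE 0.14, edgeR adjusted p = 1.33e-09), and oligodendrocyte precursor-like cells averaged 38.1 CPM. Rsph6a, the sperm counterpart of Rsph4a, had 1 UMI in ependymal-like and 46 in SPN-like cells, a pooled 0.280 and 0.665 CPM, too few to order the classes. Rsph3a and Rsph3b share most of their 3′ ends, and UMIs cannot be assigned to either with certainty.

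Of the 4 tektins, Tekt1 (chr11:72344722-72362442), which forms filaments inside the doublets, was at 171, 292, 248, 242, 159 and 340 CPM in ependymal-like cells and at 7.31, 7.39, 12.5, 9.51, 9.48 and 10.8 CPM in astrocyte-like cells, a log2 fold change of 4.75 (SE 0.18). Against SPN-like cells, which had 5 Tekt1 UMIs in all, the log2 fold change was 11.46. Tekt4 (chr17:25454615-25476602) was at 89.2, 69.8, 75.5, 69.9, 97.9 and 84.3 CPM and 4.07 (SE 0.24) above astrocyte-like cells on the log2 scale. Both were far above the other classes in every pool. Tekt2 (chr4:126322121-126325688) gave few UMIs, at 0, 8.72, 5.10, 6.99, 1.61 and 4.08 CPM, and did not pass the low-count filter of the 4 comparisons. Its ependymal-like pools overlapped those of neuroblast-like cells, at 0.697 to 5.44 CPM. Tekt5 (chr16:10357948-10395490), known from sperm, ran the other way. It was at 0, 0, 1.02, 0, 1.61 and 1.36 CPM in ependymal-like cells and at 10.2, 6.60, 5.75, 5.67, 13.7 and 4.82 CPM in SPN-like cells, and the log2 fold change was −3.00 (SE 0.60, edgeR adjusted p = 7.68e-06).

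The 24 Cfap genes gather proteins of many places in the axoneme. Cfap54 (chr10:92775619-93081618), a protein of the central apparatus, was at 213, 554, 681, 567, 334 and 605 CPM in ependymal-like and at 5.85, 7.39, 11.2, 8.72, 9.48 and 10.4 CPM in astrocyte-like cells. Its log2 fold changes were 5.90 (SE 0.17) against astrocyte-like, 9.34 against cycling progenitor-like, 11.33 against neuroblast-like and 7.84 against SPN-like cells. Neuroblast-like cells gave 1 Cfap54 UMI in all, a ratio of 5429 with a counting interval of 973 to 214550, so the 11.33 is loosely set. Cfap126 (chr1:171113918-171126967), which takes part in placing basal bodies, was at 473, 419, 421, 425, 575 and 473 CPM, a log2 fold change of 6.11 (SE 0.27) against astrocyte-like cells, where late pool 1 stood apart with 25.7 CPM. Cfap36 (chr11:29221532-29247409), an ARL3-binding protein that also occurs in primary cilia, was broad. It was at 267, 345, 261, 333, 222 and 243 CPM in ependymal-like cells and at 184, 203, 195, 227, 176 and 178 CPM in SPN-like cells. The pools overlapped, and the log2 fold change of 0.55 (SE 0.11, edgeR adjusted p = 5.39e-06) was no longer called when no filter on low counts was used (0.18, edgeR adjusted p = 0.238). Cfap97 averaged 46.0 ± 8.30 CPM in ependymal-like and 51.3 ± 9.75 in SPN-like cells (SD, n = 6 pools), and its difference of −0.12 on the log2 scale did not pass (edgeR adjusted p = 0.453). It was called lower, at −0.50, with no filter on low counts and, at −0.27, with all 5 classes in 1 fit. The median shift over all genes against SPN-like cells was −0.38 and −0.15 in these 2 settings. The moves of Cfap36 and Cfap97 are therefore not particular to these genes. All 24 Cfap genes were tested against SPN-like cells, and 23 were called higher, beside 37.8% of all genes, with a median log2 fold change over the 24 of 8.32.

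The name Spag stands for sperm associated antigen, and its 9 members here are unrelated proteins. Spag6l (chr16:16753016-16829456) and Spag17 (chr3:99885406-100143322) belong to the central apparatus. Spag6l was at 281, 275, 292, 307, 260 and 323 CPM, a log2 fold change of 6.20 (SE 0.25) against astrocyte-like cells and of 4.73 (SE 0.13) against SPN-like cells, which had 9.64 to 13.6 CPM. Spag17 was at 178, 292, 297, 233, 173 and 287 CPM and had 0 UMIs in astrocyte-like and in cycling progenitor-like cells, at least 658-fold and 1275-fold higher against the floor of 3 counts. Spag16, also of the central apparatus, was at 89.2, 113, 155, 155, 88.3 and 120 CPM, with 90.5% of its UMIs in ependymal-like cells.

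Spag8 and Spag1 were also highest in ependymal-like cells, and the other 4 Spag genes were highest in another class. Spag9 (chr11:93996091-94126085), a scaffold that links kinases and cargo to microtubule motors, was at 89.2, 188, 161, 156, 133 and 158 CPM in ependymal-like cells and at 252, 535, 509, 504, 194 and 431 CPM in astrocyte-like cells. It was lower in ependymal-like cells by a log2 fold change of −1.32 (SE 0.16, edgeR adjusted p = 2.19e-06), in 6 of 6 pools and without overlap. Against neuroblast-like cells Spag9 was lower by −0.70 and against cycling progenitor-like cells its difference of −0.25 did not pass (edgeR adjusted p = 0.0559), though DESeq2 and several other alternatives called it lower. Against SPN-like cells the Spag9 difference of −0.25 stood at the threshold (edgeR adjusted p = 0.0491) and was lost in several alternatives. Spag7 (chr11:70663771-70669416) was at 54.9, 82.9, 47.9, 45.4, 40.1 and 57.1 CPM and lower than in all 4 classes, by log2 fold changes of −0.59 (astrocyte-like, edgeR adjusted p = 0.00892), −1.06 (cycling progenitor-like), −0.78 (neuroblast-like) and −0.98 (SPN-like). With sums thinned to 1 depth the Spag7 values against astrocyte-, neuroblast- and SPN-like cells were −0.21, −0.34 and −0.07, and those calls were lost, as was that of Spag9 against neuroblast-like cells, at −0.31. The median shift over all genes with thinned sums was −0.17, 0.22 and 0.31 against astrocyte-, neuroblast- and SPN-like cells. Spag5 (chr11:78301529-78322457), the spindle protein astrin, was at 0, 0, 4.08, 6.99, 11.2 and 8.15 CPM in ependymal-like cells and at 59.1, 79.8, 112, 96.3, 46.0 and 83.1 CPM in cycling progenitor-like cells, a log2 fold change of −3.66 (SE 0.26, edgeR adjusted p = 5.77e-17). Spag8, a protein inside the doublets, had 77.4% of its UMIs in ependymal-like cells. Spag1, a factor for dynein arm assembly, averaged 54.8 CPM in ependymal-like and 36.6 in astrocyte-like cells. Spag4 was low in all, at a pooled 6.996 CPM in ependymal-like and 8.62 in interneuron-like cells.

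**Figure D3:**
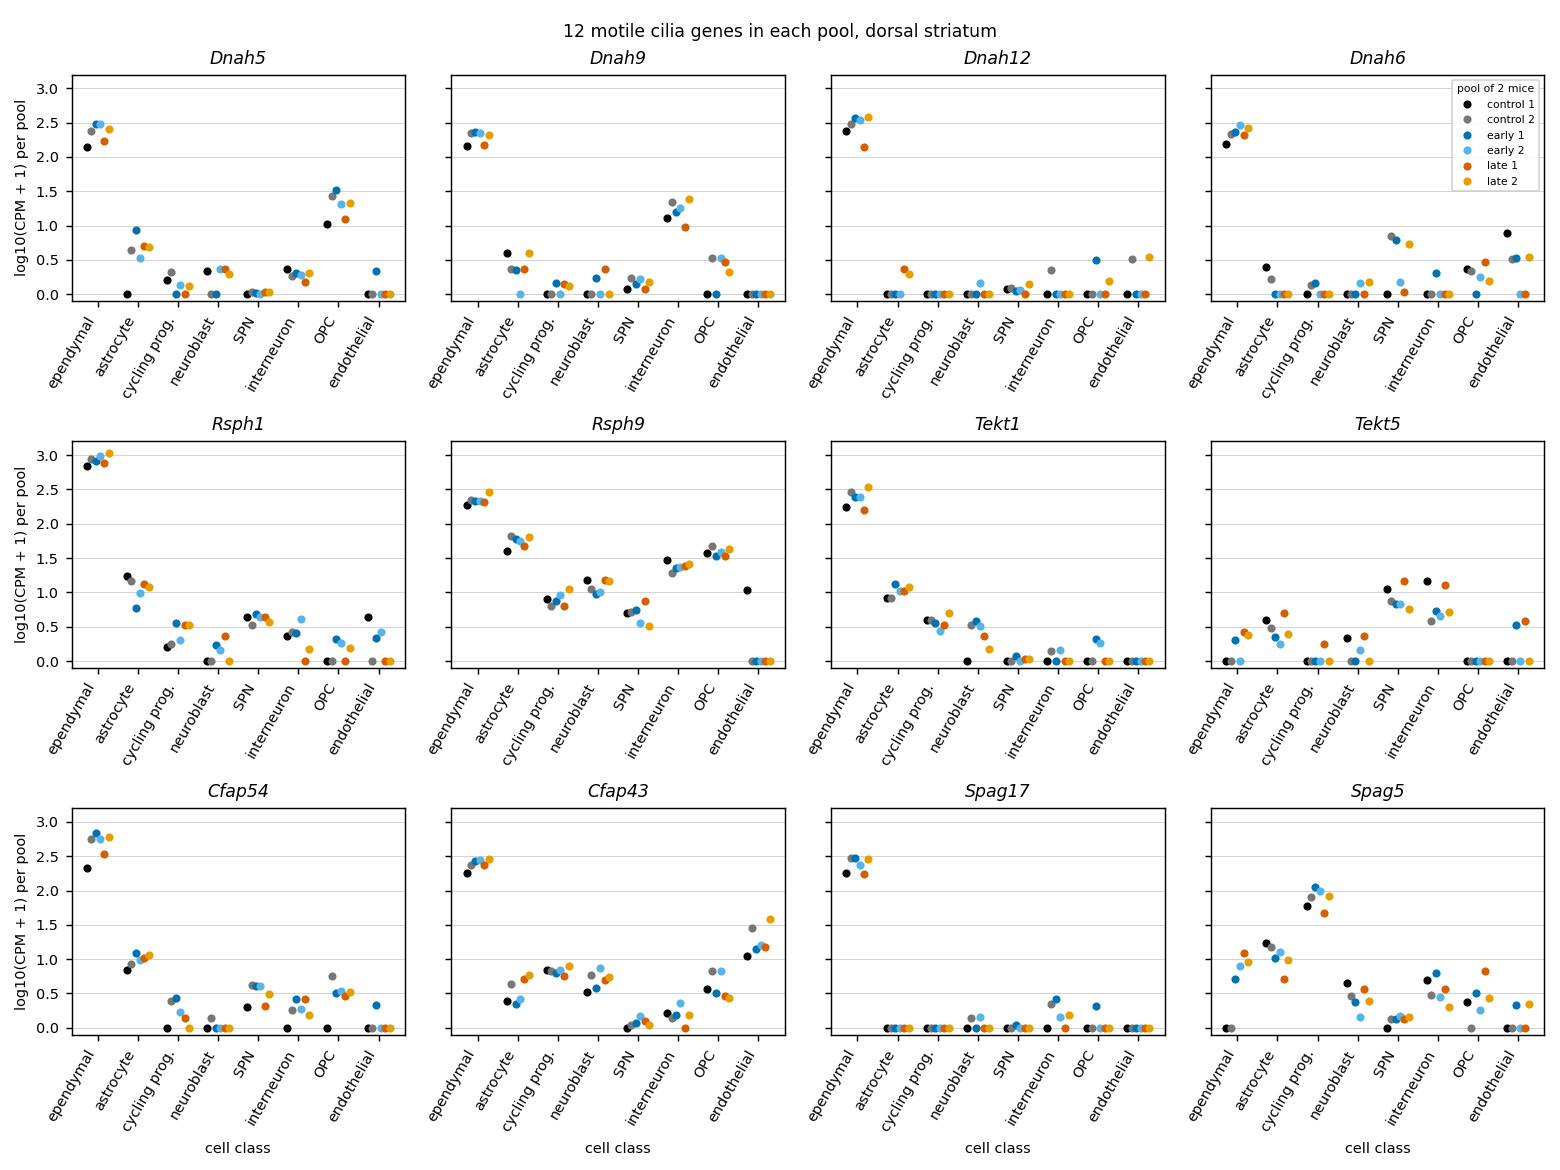
Each panel is 1 of 12 genes, with log10(CPM + 1) on the y axis, 8 cell classes on the x axis and 1 coloured point for each pool of 2 mice. For Dnah12, Rsph1, Tekt1 and Spag17 the ependymal-like pools lie above all others, while Spag5 is highest in cycling progenitor-like cells and Tekt5 in SPN-like and interneuron-like cells.

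Some members had a weaker second site that recurred in motor cortex, where no ependymal-like cluster was found. These sites were chosen after their values were seen and carry no test. Dnah5 was at 9.55, 25.6, 32.5, 19.3, 11.6 and 20.5 CPM in striatal oligodendrocyte precursor-like cells and at 16.9, 17.6, 22.3, 22.9, 15.2 and 20.6 CPM in cortical ones, from mice of the other genotype. Dnah9 was at 11.7, 21.2, 14.9, 17.3, 8.50 and 23.1 CPM in striatal interneuron-like cells and at 2.34 to 6.20 CPM in cortical ones. Cfap43, which tethers an inner arm dynein, ran from 10.0 to 36.9 CPM (median 14.4) over pools in striatal endothelial-like cells and from 13.2 to 33.4 CPM (median 26.2) in cortical ones, though its exons overlap those of Itprip on the same strand. Each of these lay below the ependymal-like level of its gene in every striatal pool.

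Astrocyte-like cells were not uniform. They formed 3 clusters, of which the one led by Gfap and Thbs4 (1235 cells, median 2194 UMIs) and the one led by Grin2c and Gjb6 (2109 cells, median 1858 UMIs) were large. Of the 39 genes with over 50% of their UMIs in ependymal-like cells, 29 were higher in the Gfap cluster than in the Grin2c cluster, beside 52.6% of the 22651 genes with a UMI in either, a choice made after the values were seen and given without a test. Of the others, Dnah7b, Dnah7c, Dnah10, Dnah14, Cfap61 and Tekt4 were lower there and 4 were at 0 in both. Some of these orders rest on too few UMIs to be secure. Dnah6, Cfap221 and Dnah11, counted as higher, were each at 0.324 CPM in the Gfap cluster, against 0.237, 0 and 0. Cfap61, Dnah10 and Dnah14, counted as lower, were at 0, 0 and 0.324 CPM there, against 0.237, 0.475 and 0.475. Rsph1 was at 45.4, 41.8, 11.7, 17.9, 29.0 and 25.5 CPM in the Gfap cluster and at 0, 0, 1.04, 0, 0 and 0 in the Grin2c cluster. Cfap44, which tethers an inner arm dynein with Cfap43, was at 8.26, 17.6, 33.3, 19.5, 6.45 and 22.0 CPM against 0, 0, 3.12, 0, 0 and 3.49 CPM. Every pool of the Gfap cluster lay above every pool of the other for Rsph1, Cfap43, Cfap44, Cfap52 and Cfap54, while Tekt1 overlapped. That is 5 of the 39 genes, beside 4.44% of all genes. Both shares of all genes include any gene with a UMI in either cluster, so they are not matched to the 39 genes in count. The Gfap cluster's levels were 0 to 9.62% of the ependymal-like levels, with a median of 1.89%. For the Grin2c cluster the median was 0.276% and the highest 25.4%, that of Dnah7b, at 21.4 CPM against 8.11 in the Gfap cluster. Dnah3 and Spag17 were at 0 in both. After thinning, 4 cells of the Gfap cluster had UMIs of at least 5 of the 59 genes. At full depth 3 of its cells had UMIs of at least 3 ependymal markers. The part of free RNA or of mixed droplets in these low levels was not tested. Without the Gfap cluster, an alternative added after the data were seen, 43 of 45 members tested were called higher and 2 lower, beside 2868 higher of the 8983 genes tested.

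**Figure D4:**
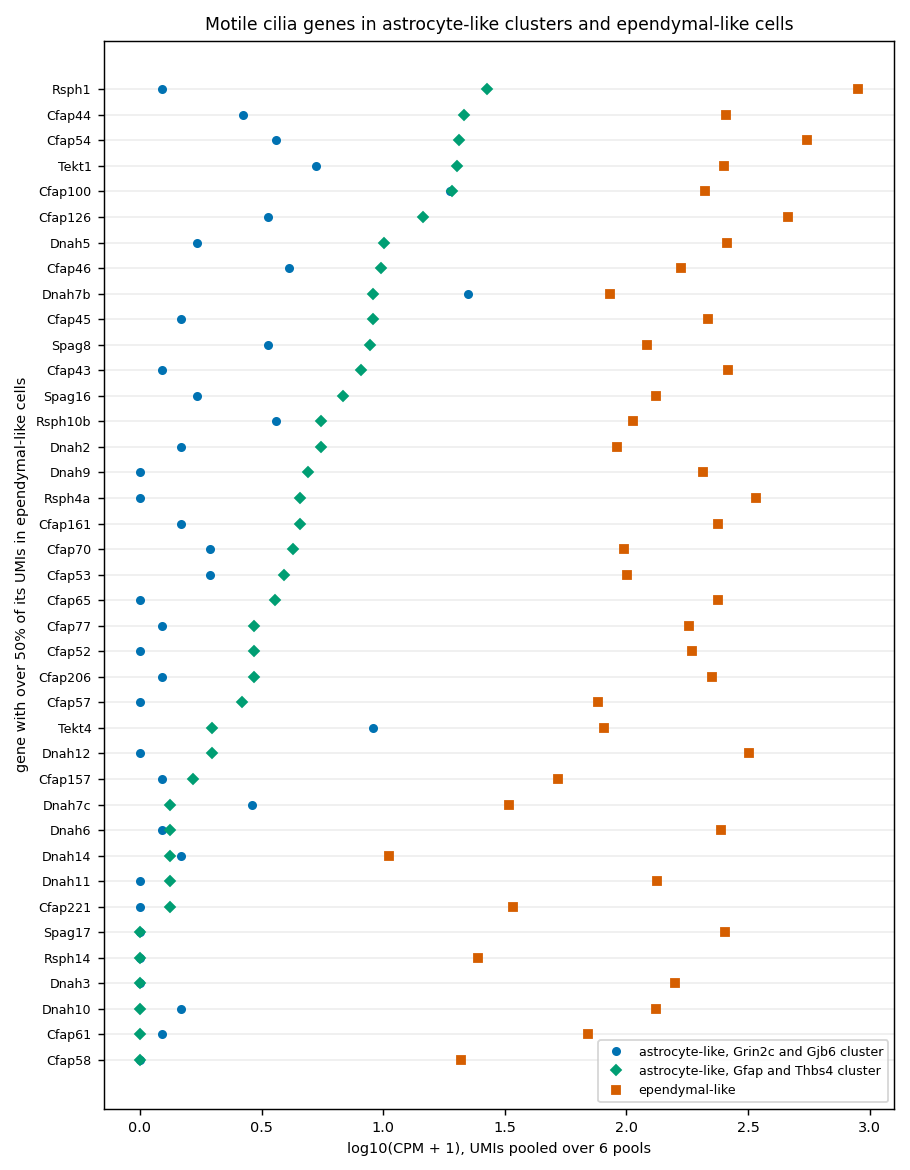
Each row is 1 of the 39 genes with over 50% of their UMIs in ependymal-like cells, and the x axis is log10(CPM + 1) from UMIs pooled over the 6 pools, for the Grin2c and Gjb6 cluster (circles), the Gfap and Thbs4 cluster (diamonds) and ependymal-like cells (squares). The squares lie to the right in every row, and 29 of the 39 genes were higher in the Gfap than in the Grin2c cluster, some of them on few UMIs.

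Other genes of the cilium were also measured. Foxj1, the regulator of the motile cilia programme, was at 1056, 942, 966, 790, 906 and 698.5 CPM in ependymal-like cells and 6.37 (SE 0.17, edgeR adjusted p = 6.97e-14) above astrocyte-like cells on the log2 scale. Of the 57 genes in 6 lists, 6 of 8 multiciliation transcription genes, 2 of 5 for basal body amplification, 12 of 14 for dynein assembly and docking, 8 of 8 for the ruler and nexin-dynein complex, 5 of 5 for the central pair and 17 of 17 for intraflagellar transport, which primary cilia share, passed the low-count filter against astrocyte-like cells. Each one that passed was called higher, beside 31.4% of all genes tested, and the filter limits these counts as it does those of the 59 genes. The median log2 fold change of the intraflagellar transport genes was 1.93, beside 4.17 for the central pair and 5.56 for the ruler and nexin-dynein genes. Hydin, a central pair protein, was 7.92 higher on the log2 scale. The intermediate chains Dnaic1 (123, 140, 107, 109, 59.4 and 92.4 CPM) and Dnaic2 were higher by 3.02 and 4.50. Plk4, which starts centriole duplication in dividing cells too, was instead lower than in cycling progenitor-like cells, by −1.96 (edgeR adjusted p = 9.51e-13), at a mean of 22.2 against 83.5 CPM. Mcidas, which starts multiciliation, had 2 UMIs in ependymal-like cells and Cdc20b had 0.

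Training stage was tested in ependymal-like cells over the 6 pools, with the kit class described next as a term, which left 2 residual degrees of freedom. Of 9350 genes tested, 51 of them members, edgeR and DESeq2 each called 0 between any 2 stages (0% of all genes). At an unadjusted p below 0.05 edgeR gave 3 members for early against control, 4 for late against control and 4 for late against early, beside 6.06%, 4.72% and 6.13% of all genes. Cfap57, a protein of an inner arm docking complex, was at 6.86, 52.3, 88.7, 83.8, 48.2 and 92.4 CPM. It had the smallest p of the members in early against control, with a log2 difference of 0.98 (SE 0.40, edgeR adjusted p = 0.799), and in late against control, with 1.20 (edgeR adjusted p = 0.946), and control pool 1 was its low value. Spag8 was at 110, 91.6, 114, 104, 111 and 170 CPM, a late against early difference of 0.61 (edgeR adjusted p = 0.791) that rested on late pool 2, since without it the value was −0.15. The second smallest p values belonged to Spag7 (−0.81, early against control), Cfap221 (−0.91, late against control) and Dnah1 (0.55, late against early), which did not pass the adjustment. Leaving out a pool leaves its stage with 1 pool, assumed to vary like the others, and the fit with 1 residual degree of freedom. Members called were then 0 too, but other genes were called. In the order early and late, each against control, then late against early, edgeR called 65, 61 and 66 genes without control 1, 8, 0 and 51 without control 2, 38, 33 and 51 without late 1, 26, 0 and 0 without late 2, and 2, 0 and 0 without early 1. Median differences over the tested members were 0.04, 0.20 and 0.11, beside 0.02, 0.02 and −0.003 over all genes. In simulated counts of this size, 30% of changes of 1 and 90% of changes of 2 on the log2 scale were found between late and control, so that a change of 1 could be missed. The changes were placed only in the more abundant genes, and no kit difference was simulated. These shares therefore do not cover members of low level or the shift between kit classes.

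Hemispheres labelled contralateral and ipsilateral were set side by side in ependymal-like cells, pool by pool, for the 4 pools of trained mice. Of 6554 genes tested, 48 of them members, edgeR and DESeq2 called 0 (0% of all genes), and 1 member and 4.10% of all genes had an unadjusted p below 0.05. That member was Cfap221, a central apparatus protein, at 37.5, 36.6, 40.3 and 34.1 CPM contralateral and 23.8, 24.5, 27.7 and 19.3 CPM ipsilateral in early 1, early 2, late 1 and late 2. It was higher contralaterally in 4 of 4 pools, by 0.63 on the log2 scale, but did not pass the adjustment (edgeR adjusted p = 0.998). Cfap52 was next, at 0.25. Without early 1 edgeR called 7 genes and without late 1 it called 1, none of them members.

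Many members were lower in 2 of the 6 ependymal-like pools. Barcodes shared between libraries fall into 2 classes, read here as kit versions, and control pool 1 and late pool 1 form the smaller class in striatum, which is also a label batch of its own, so kit version, batch and the pools' low depth cannot be told apart. No label batch held more than 1 pool of a stage, so the stages could not be tested within a batch. These pools also had low median depths in ependymal-like cells, at 2124 and 1552 UMIs against 3979 to 6729.5. Both lay below the other 4 pools for 34 of the 59 genes, beside 11.5% of 21444 genes; of the 51 members tested between stages 33 did, beside 19.6% of the genes tested. Both lay above for 5, namely Cfap126, Cfap161, Dnah7a, Rsph3b and Tekt4, beside 10.3% of genes and 16.3% of those tested. With 1 added to each CPM, the median of the 51 members tested between stages stood at −0.45, 0.03, 0.19, 0.11, −0.31 and 0.20 on the log2 scale from the mean over pools. Control 1 and late 1 were the low pools, and they belong to different stages. Of the marker lists summed in ependymal-like cells, the 7 interneuron markers, with Vip and Pthlh at 0, stood at 240 and 180 CPM in control 1 and late 1 against 47.9 to 81.5 in the other 4 pools, and the 5 oligodendrocyte markers, with Mog at 0, at 48.0 and 69.04 against 13.6 to 34.9. Of the interneuron list, Pvalb had 173 UMIs, Npy 80, Sst 66, Lhx6 3 and Chat 1. Pvalb was in 13.9% of ependymal-like cells, at a pooled 48.4 CPM. In astrocyte-, cycling progenitor-, neuroblast-, SPN- and microglia-like cells Pvalb was at 0.198 to 0.709 CPM. The 6 neuroblast markers stood at 1666 and 1522 against 762 to 1134, but 3347 of their UMIs were Cd24a, found in 90.6% of ependymal-like cells, while Dcx had 15. Astrocyte markers were lower in these 2 pools, at 1529 and 1649 against 1719 to 2408, as were choroid plexus markers, at 206 and 239 against 278 to 358, and SPN, microglia, mural and oligodendrocyte precursor markers overlapped. The 8 ependymal markers stood at 10396 and 11443 against 9315 to 11286, so they did not fall with the members. Median mitochondrial shares were 1.68% and 2.12% against 3.97 to 6.32%. Their part in the members' levels was not tested.

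**Figure D5:**
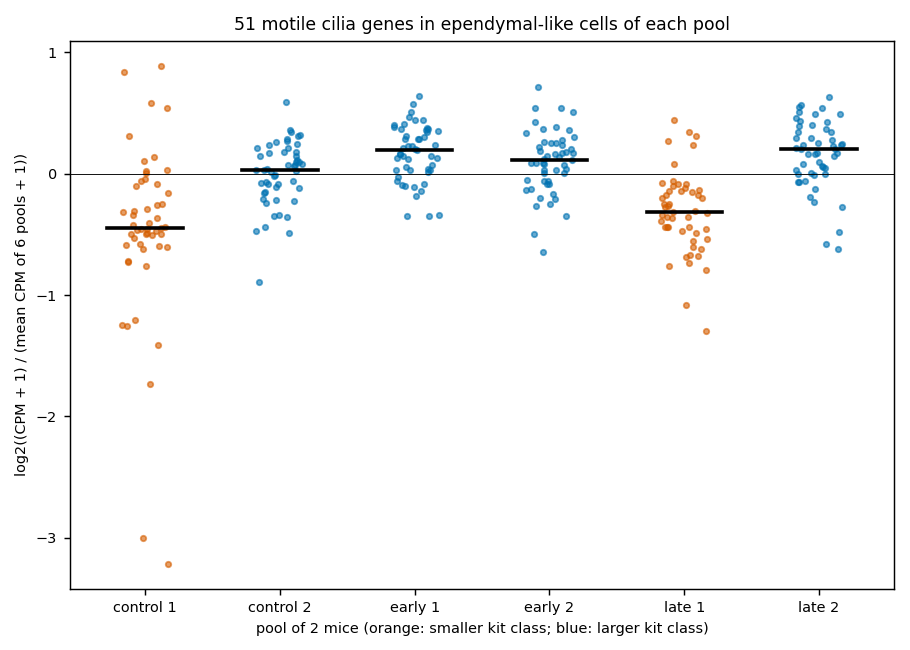
Each point is 1 of the 51 members tested between stages, the y axis is log2 of (CPM + 1) in a pool over the mean CPM of the 6 pools plus 1, and bars mark medians. The pools of the smaller kit class, control 1 and late 1 in orange, have medians of −0.45 and −0.31, and the medians of the other 4 lie between 0.03 and 0.20.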

How the data were processed

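The authors deposited matrices of UMI counts per gene and cell barcode, made with Cell Ranger 3.1.0 on GRCm38 (mm10) per the submitters' processing notes; the file headers name software version 3.0.2. The values are raw counts with no normalization. Of 24 libraries, 23 had a matrix here. A barcode was kept as a cell if it had 500 or more genes, 1000 or more UMIs and no more than 20% of its UMIs from mitochondrial genes, and the highest Scrublet scores (scanpy 1.11.5) were removed at 0.8% per 1000 barcodes. Cells were clustered with Leiden (leidenalg 0.10.2, resolution 1.5, 2000 variable genes, 40 components, 20 neighbours), leaving out the members and the other listed cilia genes, and classes were named from marker lists. UMIs were summed per pool and class and tested with edgeR 4.0.16 (quasi-likelihood, TMM factors, filterByExpr), with Benjamini-Hochberg adjustment over all genes and a threshold of 0.05. DESeq2 1.42.0 was an alternative. Each SE is back-calculated, as the absolute log2 fold change of edgeR over the square root of its F statistic. On simulated counts edgeR recovered 89% of log2 changes of 1 for ependymal-like against astrocyte-like cells. Those changes were placed in the more abundant genes only, and no difference between pools was simulated. Kit class was read from shared barcodes, since the labels do not give it per library; pairs of libraries shared 1.31 or 0.261 barcodes per 1000000 pairs within a class and 0.0240 between classes. Positions and exon overlaps come from GENCODE vM21.

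Named genes were, per role, the 3 members with the most UMIs in ependymal-like cells, every tested member not called higher there, and, with no call between stages or hemispheres, the 2 with the smallest p; other members named for a low count, a motif, a second site or a contrast among paralogs were chosen after their values were seen. The members and lists were chosen with earlier results of these data known. Replicate numbers follow accession order within a stage and pair nothing across stages; both classes or hemispheres of a pool come from the same mice, so pool is the block there. Intervals and floors cover counting error only, and free RNA in droplets was not modelled. The p-values set a difference against its variation over these pools, after the pool block in class and hemisphere fits and the kit term in stage fits.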

Additional observations from a re-analysis of the deposited data

How the results depend on the processing

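Alternatives covered the scaling, the low-count filter, DESeq2, stricter cell filters, doublets kept, cilia genes kept in clustering, all classes in 1 fit, thinning and each pool left out. Leaving out 1 pool at a time, the members called higher numbered 45 to 48 against astrocyte-like, 47 to 51 against cycling progenitor-like, 45 to 48 against neuroblast-like and 50 to 51 against SPN-like cells, and those lower 2 to 2, 2 to 3, 2 to 2 and 2 to 3. Over all genes these fits called 2502 to 3119, 3946 to 4438, 3425 to 3902 and 4274 to 5204 higher, in the same order. Genes called in either direction numbered 5192 to 6687, 7956 to 8875, 6807 to 7563 and 9866 to 11296. Genes tested numbered 9334 to 10149, 10611 to 11477, 9278 to 9838 and 13070 to 14722. Sums thinned to 1 depth left fewer genes to test, at 2894, 2938, 2865 and 3281 in the same order. They gave 29, 29, 30 and 30 members higher and 1, 1, 0 and 0 lower. Over all genes 871, 1201, 1180 and 1370 were then higher, of 1689, 2314, 2149 and 2558 called. With cells thinned to 1000 UMIs, the shares with at least 5 members were 88.9% (ependymal-like), 0.143% (astrocyte-like), 0 (cycling progenitor-like), 0 (neuroblast-like), 0.00671% (SPN-like) and 0.0198% (microglia-like).

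Without pool as the replicate block the class comparisons gave 45, 47, 45 and 50 members higher and 2, 2, 2 and 2 lower. Over all genes 2658, 3871, 3451 and 4593 were then higher, of 5172, 7608, 6653 and 9550 called. Genes tested numbered 9678, 10705, 9426 and 13121. The member lost against SPN-like cells was Spag9 (edgeR adjusted p = 0.207). A replicate block in place of kit class, whose numbers do not pair the pools of different stages, gave 0 members in each stage comparison, and the hemisphere comparison without the block gave 0.

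Of 1308 values for single genes 1286 kept their direction and side of the threshold, 10 lost the call, 10 gained one and 2 reversed. Spag9 against SPN-like cells reversed to 0.22 (edgeR adjusted p = 0.315) with thinned sums, where the all-gene median shifted by 0.31. It lost its call without control 2, early 2 or late 2. Spag9 against cycling progenitor-like cells was called lower without control 1 or late 1 and with RLE factors, no filter, DESeq2, all 5 classes in 1 fit, doublets kept or cilia genes kept in clustering. With thinned sums Spag7 lost its call against astrocyte-, neuroblast- and SPN-like cells and Spag9 against neuroblast-like cells. Spag8 in late against early reversed to −0.15 without late 2 and was at most 0.73 with another pool left out (without late 1). With no filter on low counts, 11465 genes in place of 7253 were called against neuroblast-like cells, and 21, 9 and 41 between stages and 4 between hemispheres, none of them members; stricter cell filters gave 1, 4, 8 and 5, doublets kept 0, 0, 2 and 4, and the replicate block 1 for late against early. The largest shift of the all-gene median was −0.38, against SPN-like cells with no filter. The causes were not tested. Depth limits Tekt2, Rsph6a and Dnah8, and control 2 rests on 38 ependymal-like cells.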
